A study of Mus musculus with 6 samples.

Results

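Splicing factor genes were described in cone photoreceptors sorted from mouse retina, with and without the clock gene Bmal1. Members were taken from the deposited expression table by gene symbol. They were the genes of the SR proteins (Srsf), the hnRNP proteins (Hnrnp), the Rbfox, Nova, Msi, Ptbp, Celf and Mbnl regulators, the snRNP proteins (Snrp, Snrnp, Sf3a, Sf3b), and the U2af, Lsm and Prpf genes. The rule found 96 of the 9720 genes in the table, of which 53 were counted as core spliceosome genes and 43 as regulators of splicing. The core count goes by symbol and includes 5 Lsm genes of other roles. A further 11 genes that carry such symbols in the GENCODE annotation were not analysed here (Celf5, Lsm2, Lsm11, Mbnl3, Nova2, Prpf38a, Rbfox1, Rbfox2, Rbfox3, Sf3b5 and Srsf3).

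Both groups were mice of strain C57BL/6 with a mixed background that carried the Cre transgene HRGPcre and the reporter Z/EG. HRGPcre is driven by a human red/green cone pigment promoter, and Z/EG turns on eGFP where Cre has acted, so that green cells could be collected by FACS. The 3 control libraries came from Bmal1f/+ animals with 1 floxed copy, and the 3 knockout libraries from Bmal1f/f animals with 2, so a recombined control cone keeps a single working copy. The age given is day 60 to 80 after birth, with 2 to 6 months beside it, and the light cycle was 12 h on and 12 h off. The sources used here do not give whether a library pooled animals, or the hour of collection, so p-values reflect only the spread between these libraries. In bulk RNA, fewer cells with a transcript and less transcript per cell cannot be told apart.

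The spliceosome removes introns from pre-mRNA. Its U1, U2, U4, U5 and U6 particles each hold a small nuclear RNA, a ring of Sm or LSm proteins and particle-specific proteins, and Prpf proteins build, activate and rearrange them. SR proteins mostly bind exons and recruit the machinery, hnRNP proteins often oppose them, and the tissue-restricted regulators shift alternative exons in chosen cell types. In photoreceptors the topic has a clinical side, since mutations in several U4/U6.U5 genes, among them PRPF31 and PRPF8, cause retinitis pigmentosa, and Musashi proteins (Msi) drive exons that are specific to photoreceptors.

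Levels are FPKM, which scale fragments by transcript length and library size so that genes can be compared. A relation to length remained in some libraries, as given below, so comparisons between genes are approximate. Values given in threes follow libraries 1, 2 and 3. Differences between groups are on the scale of log2(FPKM + 1), knockout minus control, and were tested with limma over the 8627 genes whose mean reached 1 FPKM. Library depth is unknown. Cone markers were high in every library, the 12 of them summing to 4214 to 7175 FPKM in control against 5548 to 6841 FPKM in knockout. The 14 rod markers summed to 3102 to 3840 and 2650 to 3853 FPKM, so rod RNA was present too. Markers of Müller glia (7 genes) and of bipolar cells (10 genes) summed to 91.8 to 120.2 and 87.9 to 124.6 FPKM in all 6 libraries. The 2 amacrine markers in the table summed to 8.98 to 11.2 FPKM in control against 5.01 to 8.15 FPKM in knockout, the 1 red blood cell marker to 1.48 to 2.93 and 3.06 to 5.29 FPKM, and the 1 vascular marker to 0.593 to 0.812 and 1.23 to 1.30 FPKM. The 4 ganglion cell markers summed to 3.59 to 24.8 FPKM in control, highest in control 1, and to 2.66 to 3.30 FPKM in knockout. These 4 sums did not overlap between groups, and their part in the results was not tested. Arntl, which encodes BMAL1, read 2.60 to 3.27 FPKM in control against 2.28 to 3.48 FPKM in knockout, and this whole-gene value does not check the genotype. Control 1 stood apart, with a mean correlation across genes of 0.90 to each group against 0.92 to 0.95 for the other libraries, and with the ganglion cell marker Stmn2 at 21.1 FPKM against at most 0.668 in the other 5 libraries. Some of the differences that moved with control 1 or another library, but not all, are also given without it.

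None of the 92 splicing factor genes tested passed an adjusted p of 0.05 between knockout and control. Over all tested genes, 0.0464% passed as higher and 0.058% as lower. The adjusted p of Sf3a1, the smallest of the members described singly, was 0.84 (limma). At an unadjusted p under 0.05 there was 1 member higher and 2 lower (Sf3a1 and Ptbp1), against 1.53% and 3.96% of all tested genes. The same 3 genes were the members whose control and knockout ranges did not overlap, 1 higher and 2 lower, beside 3.52% and 5.87% of all tested genes. These shares lie near or under the background. The precision was moderate: the 95% interval stayed between -1 and 1, that is within a 2-fold change on this scale, for 78 of 92 members, beside 85.4% of all tested genes. Of the regulators 38 of 40 had such an interval, and of the core genes 40 of 52. The standard error ranged from 0.21 (Snrnp48) to 0.39 (Lsm7), so smaller differences were not resolved.

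**Figure D1:**
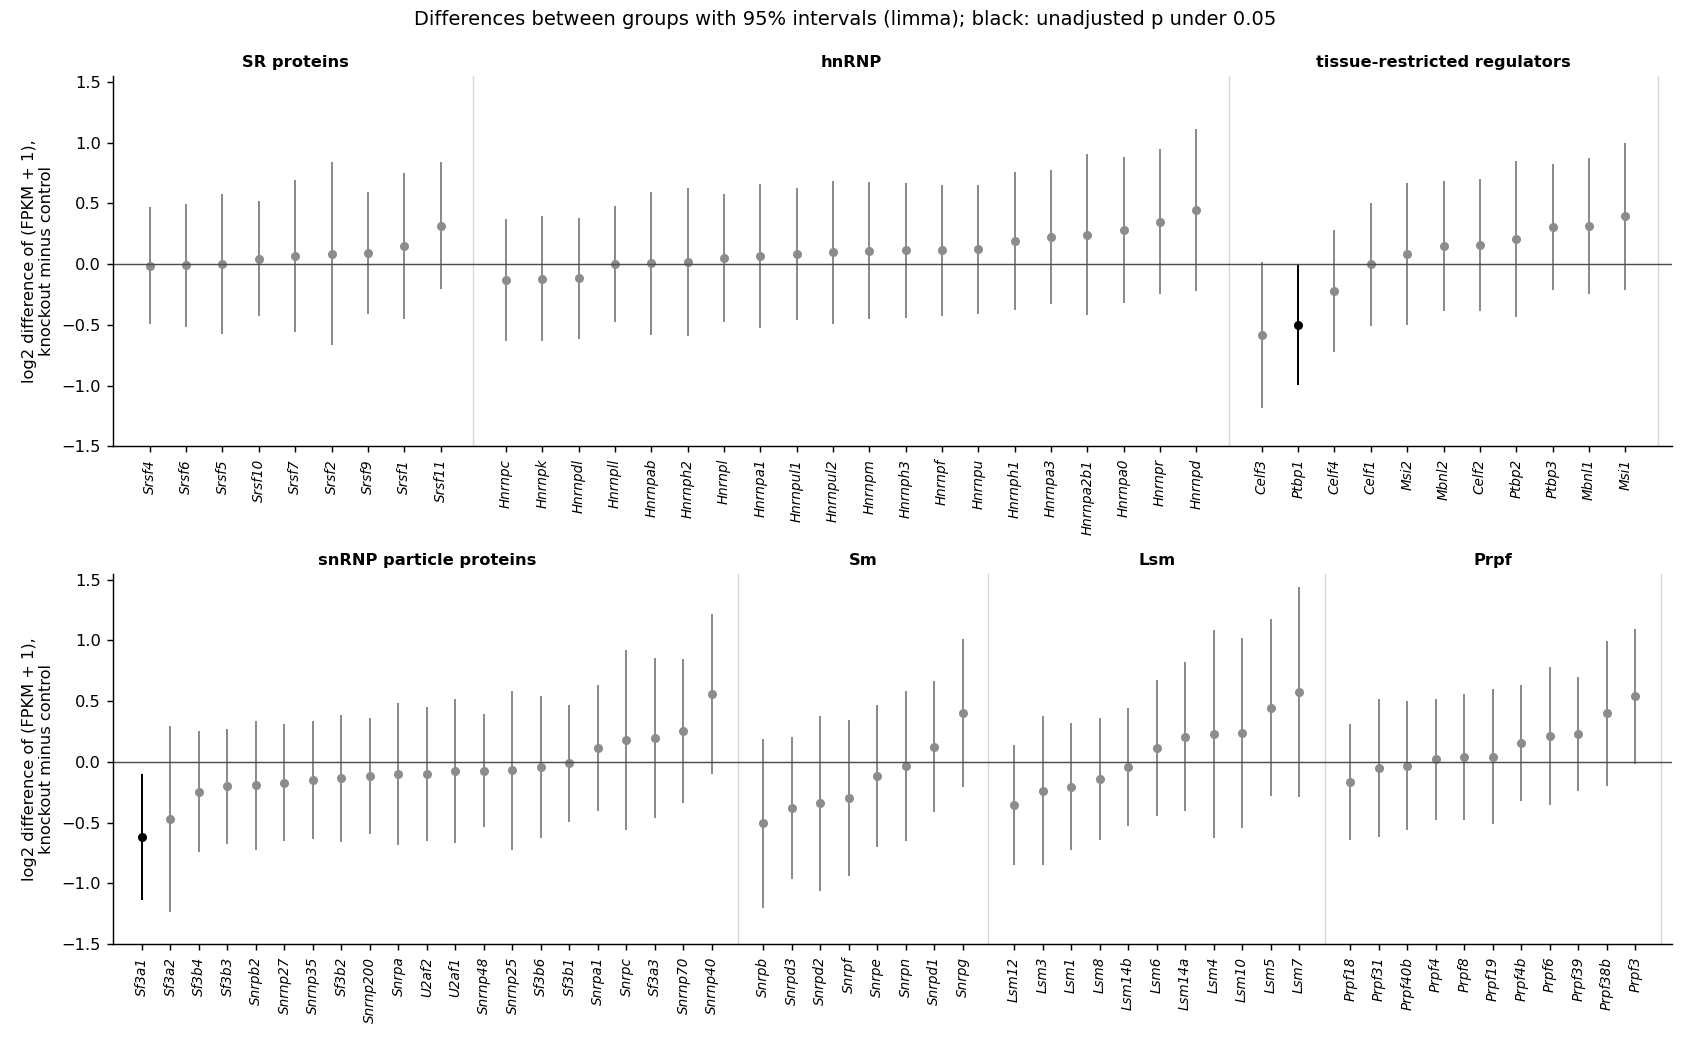
Log2 difference of FPKM + 1 (knockout minus control, y axis) with its 95% interval for the tested splicing factor genes that are described here, grouped by role and ordered by size. Most intervals span 0, and those drawn in black (Sf3a1 and Ptbp1) have an unadjusted p under 0.05, with none below 0.05 after adjustment.

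Splicing regulators were more abundant than core genes in every library. Their median level in a library was 2.60 to 3.68 times that of the core genes. Averaged over the 6 libraries, the median regulator stood at 19.6 FPKM and the median core gene at 6.24 FPKM, beside 4.53 FPKM for all tested genes. A mean of at least 50 FPKM was reached by 11 of 43 regulators and 2 of 53 core genes. Together the regulators made up 1.32% to 1.67% of the FPKM sum of a library, and the core genes 0.53% to 0.64%. A few genes carried much of this. Hnrnpa2b1, Srsf2, Srsf1, Hnrnph3 and Hnrnph1 held 43.8% of the regulator sum, and Lsm14a, Snrnp70 and Prpf38b held 44.5% of the core sum. Lsm14a, also among the 2 core genes at 50 FPKM or more, counts as core by symbol only and acts in P-bodies.

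**Figure D2:**
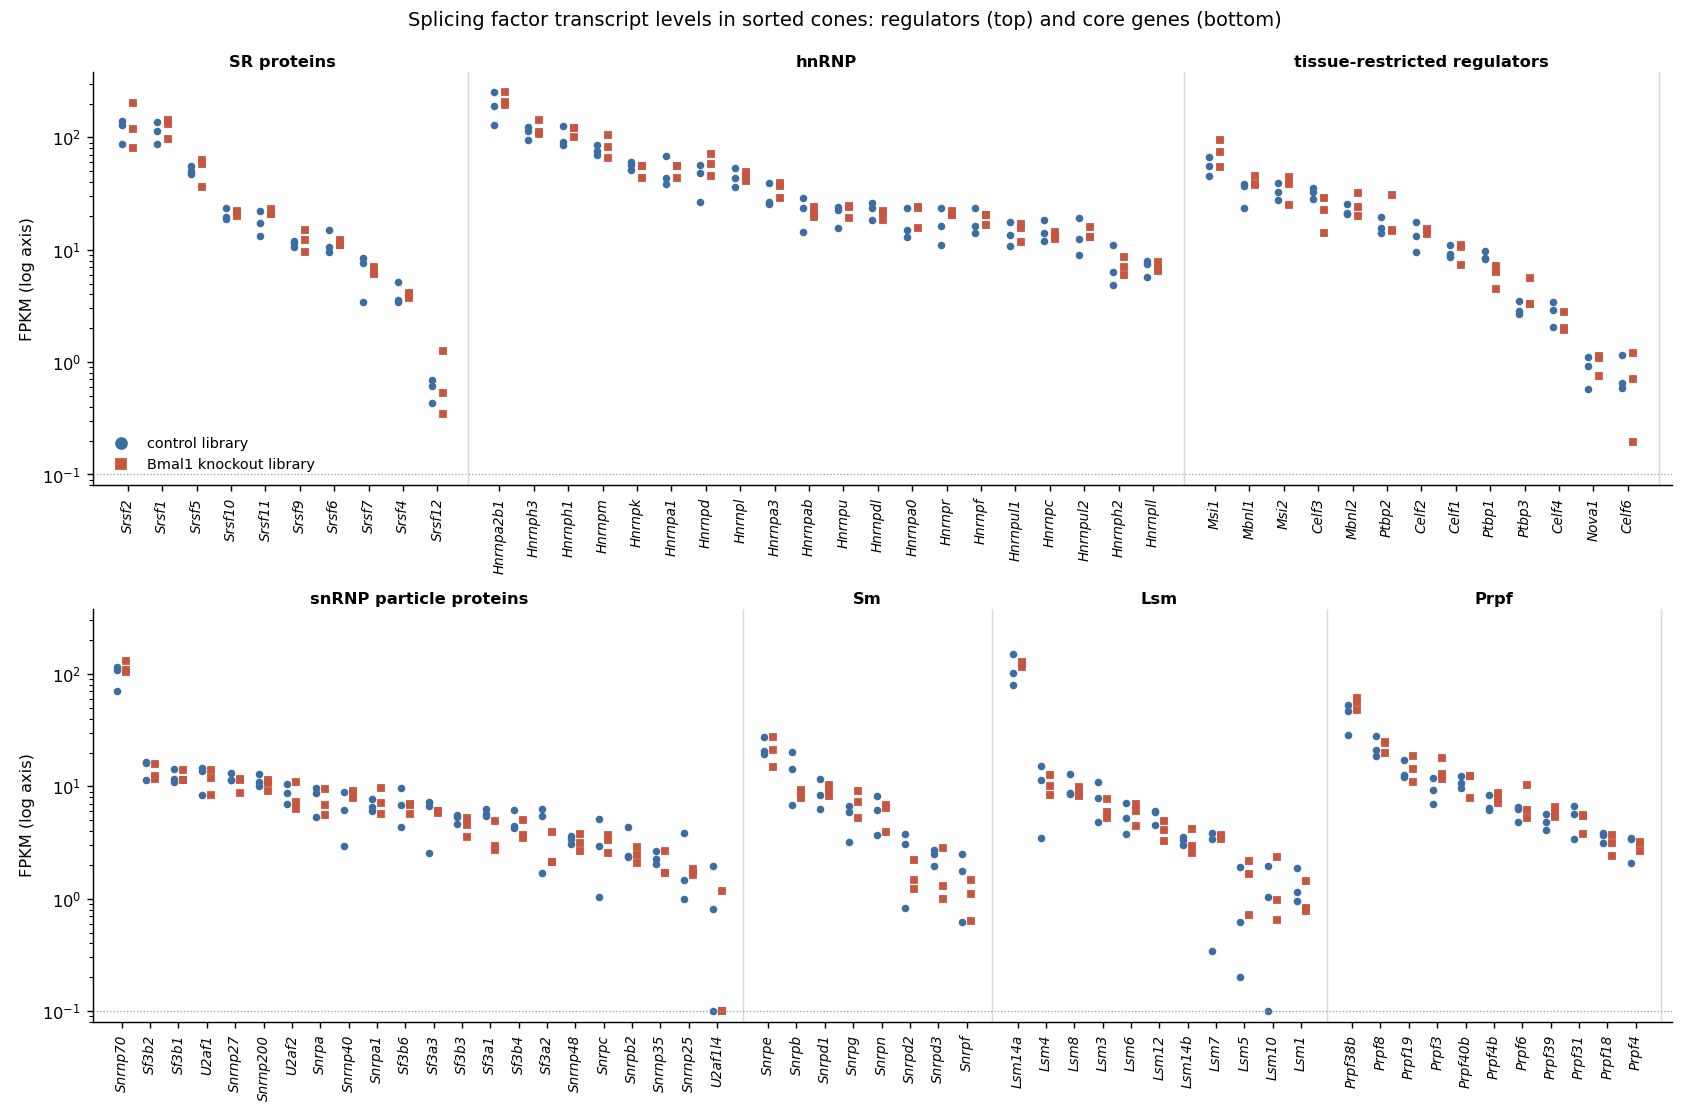
FPKM of the splicing factor genes described here (log axis) in the 3 control libraries (blue circles) and the 3 knockout libraries (red squares), regulators above and core genes below, ordered by mean within each role. Levels run from over 200 FPKM for Hnrnpa2b1 down to the table's floor of 0.1 FPKM (dotted line), and the symbols of both groups overlap for all of them but Sf3a1 and Ptbp1.

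Among the SR proteins, which bind exonic enhancers through RNA recognition motifs and contact the spliceosome through arginine- and serine-rich domains, Srsf2 and Srsf1 led. Srsf2 measured 86.6, 129.0 and 141 FPKM (controls) and 200.4, 79.8 and 118 FPKM (knockouts). Its knockout libraries included both the highest and the lowest value of the 6. Srsf1 measured 87.1, 113 and 137 FPKM in the controls against 133, 142 and 97.3 in the knockouts, with overlapping ranges. Srsf5 followed at a mean of 51.5 FPKM over all libraries, and Srsf10, Srsf11, Srsf9 and Srsf6 lay between 11.6 and 21.0 FPKM. Srsf7 averaged 6.49 FPKM, and Srsf4 read 3.42 to 5.17 FPKM. Srsf12 averaged 0.649 FPKM and was not tested. Over the 9 tested, the log2 differences ran from -0.01 for Srsf4 to 0.32 for Srsf11 (SE 0.24, adjusted p = 0.96, limma), with a median of 0.07. Without control 1 the difference of Srsf11 was 0.14. Srsf11 read 13.2, 17.4 and 21.9 FPKM over the controls, and 21.0, 23.3 and 20.8 over the knockouts.

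All 20 hnRNP genes in the table were tested, and as a family they were the most abundant, with a median of 21.7 FPKM. Hnrnpa2b1, which encodes an RNA-binding protein that also sorts RNAs for transport, read 128, 188.5 and 256 FPKM (controls) and 255, 196 and 206 FPKM (knockouts). Its log2 difference was 0.24 ± 0.30 (SE; adjusted p = 0.9996, limma), and -0.014 without control 1. Hnrnph3 and Hnrnph1, which encode proteins that bind runs of G, averaged 116 and 108 FPKM, and Hnrnpm, a regulator of alternative exons, 80.9 FPKM. Hnrnpd (AUF1), known also for binding AU-rich elements of unstable mRNAs, had the largest positive difference of the family with all libraries. It read 26.4, 48.2 and 56.3 FPKM in the controls against 45.6, 70.8 and 57.4 in the knockouts (log2 difference 0.45 ± 0.30, adjusted p = 0.93, limma). Knockouts 2 and 3 lay above every control, knockout 3 narrowly, and control 1 lay under the other 5 libraries. Without control 1 the difference of Hnrnpd was 0.13. The family's smallest p on the negative side belonged to Hnrnpc, which binds uridine tracts of introns, with 14.8 ± 3.19 FPKM in control against 13.3 ± 0.96 FPKM in knockout (mean ± SD, n = 3 each). Hnrnpll, at 7.03 FPKM, was the least abundant member.

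The tissue-restricted regulators spread over a wide range of levels. Msi1, a Musashi gene, was the most abundant of them, with 45.3, 55.6 and 66.6 FPKM over the controls, and 74.1, 54.5 and 95.4 over the knockouts. The ranges of the groups overlapped and the log2 difference was 0.39 ± 0.27 (adjusted p = 0.93, limma). It was 0.25 without control 1 and 0.20 without knockout 3. Msi2 read 32.8, 27.9 and 39.2 FPKM (controls) and 25.0, 38.5 and 44.2 FPKM (knockouts). Msi1 exceeded Msi2 in all 6 libraries, by 1.38 to 2.96 times. Mbnl1 and Mbnl2, muscleblind genes whose products favour mature splicing patterns, measured 33.0 ± 8.30 and 22.5 ± 2.46 FPKM in control against 40.4 ± 4.38 and 25.4 ± 6.27 FPKM in knockout (mean ± SD, n = 3 each). Nova1, a regulator of neuronal exons, averaged 0.929 FPKM and was not tested.

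The Celf genes encode CUG-binding regulators of splicing and mRNA stability, and Celf3 was the leading one in these libraries. It read 35.4, 28.2 and 32.7 FPKM in the controls against 14.0, 22.7 and 28.8 in the knockouts. Knockout 3 lay inside the control range and the other knockout libraries under it. Its log2 difference of -0.59 ± 0.27 had a 95% interval of -1.18 to 0.01 (adjusted p = 0.90, limma), and it was -0.31 without knockout 1. Celf2, Celf1 and Celf4 averaged 14.1, 9.60 and 2.52 FPKM. Celf6 averaged 0.754 FPKM and was not tested. As a share of the summed Celf level, Celf3 held 62.0%, 53.0% and 49.7% in control and 37.0%, 44.4% and 49.2% in knockout. The shares did not overlap but nearly touched, and those of Celf1 did not overlap either, at 15.1% to 17.1% in control and 17.9% to 21.7% in knockout. A lower share of Celf3 by itself raises the others, and the level of Celf1 averaged 9.56 FPKM in control and 9.64 in knockout (log2 difference -0.001). The shares were computed after the values were seen and carry no test.

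Ptbp1 encodes the polypyrimidine tract binding protein, which represses neuronal exons in many cell types, and Ptbp2 encodes its neuronal paralog. Ptbp1 (chr10:79854427-79864771, plus strand, GRCm38) read 9.66, 8.37 and 8.29 FPKM over the controls, and 4.48, 7.22 and 6.32 over the knockouts. All knockout values lay under all control values. The log2 difference was -0.50 ± 0.23 (95% interval -0.99 to -0.01, unadjusted p = 0.048 and adjusted p = 0.90, limma). Without control 1 it was -0.43 with an unadjusted p of 0.080 (limma), and over all fits that left out 1 library it lay between -0.62 and -0.33, nearest to 0 without knockout 1. Ptbp2 was more abundant in each library, at 19.7, 14.2 and 15.7 FPKM (controls) and 14.8, 31.0 and 15.0 FPKM (knockouts), where knockout 2 stood above the other 5. The ratio of Ptbp2 to Ptbp1, which a scaling factor per library cannot alter, was 2.04, 1.69 and 1.90 in control and 3.30, 4.29 and 2.37 in knockout. The ratio was higher in each knockout library than in any control. It was computed after the values were seen, reuses the Ptbp1 values given above and carries no test. Over fits that each left out 1 library, the unadjusted p of Ptbp1 ran from 0.041 to 0.22 and that of Sf3a1 from 0.0066 to 0.098 (limma). Ptbp3 read 3.52, 2.70 and 2.87 FPKM in the controls against 5.62, 3.29 and 3.31 in the knockouts. Exons of Ptbp1 overlap those of Plppr3 on the opposite strand by 251 bp, and the sources used here do not give whether counting used strand.

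**Figure D3:**
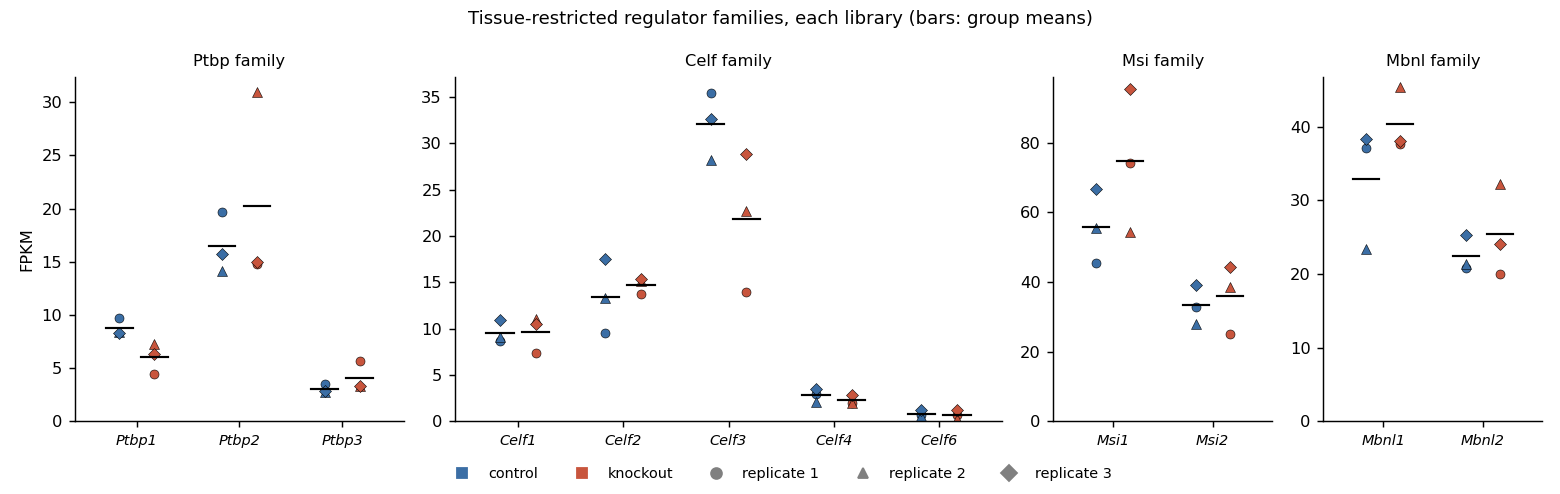
FPKM (y axes start at 0) of the Ptbp, Celf, Msi and Mbnl genes in each control (blue) and knockout (red) library, with symbols for the replicate number and bars for group means. Ptbp1 is lower in the 3 knockout libraries (4.48 to 7.22) than in the 3 controls (8.29 to 9.66), while Ptbp2 overlaps and has a single high value in knockout 2.

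In the core, the particle-specific proteins of the snRNPs were led by Snrnp70, the U1 protein that binds the first stem of U1 RNA. It read 70.2, 109 and 115 FPKM over the controls, and 131, 109 and 105 over the knockouts, with control 1 alone under 100 FPKM. Its log2 difference was 0.25 with all libraries and 0.033 without control 1. The next gene of this role, Sf3b2, averaged 14.0 FPKM. Snrnp40, a U5 protein gene, had the smallest p among the positive differences, at 2.96, 6.21 and 8.88 FPKM (controls) and 8.98, 9.05 and 7.93 FPKM (knockouts) (log2 difference 0.56 ± 0.30, adjusted p = 0.91, limma). Control 3 lay within the knockout range, and without control 1 the difference was 0.19. The minor spliceosome genes Snrnp25, Snrnp35 and Snrnp48, which belong to the U11/U12 particle, were low at 1.91, 2.17 and 3.28 FPKM. U2af1 and U2af2, whose products recognise the 3′ splice site, averaged 11.8 and 8.44 FPKM. Their relative U2af1l4 was listed at the floor of 0.1 FPKM in control 1, knockout 1 and knockout 2, and read 0.812 and 1.94 FPKM in controls 2 and 3 and 1.18 FPKM in knockout 3. It was not tested.

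SF3a and SF3b are the protein parts of the U2 particle that hold the branch site. Sf3a1 (chr11:4160350-4182541, plus strand, GRCm38) read 5.69, 6.30 and 5.50 FPKM in the controls against 2.71, 2.97 and 4.95 in the knockouts. All knockout values lay under the control values, with knockout 3 close to them. The log2 difference was -0.62 ± 0.23 (95% interval -1.13 to -0.11, unadjusted p = 0.021 and adjusted p = 0.84, limma). Sf3a2 read 1.70, 6.31 and 5.46 FPKM over the controls, and 2.12, 2.11 and 3.92 over the knockouts, so that control 1 was the lowest of all. Its log2 difference was -0.47, but -0.92 without control 1 and -0.20 without control 2. Sf3a3 read 2.54, 7.29 and 6.71 FPKM (controls) and 5.81, 6.01 and 6.09 FPKM (knockouts). Its log2 difference was positive, at 0.19 ± 0.30, with control 1 the lowest library. Controls 2 and 3 lay above every knockout library. Among the SF3b genes, Sf3b1, the largest subunit, averaged 12.3 FPKM with a log2 difference of -0.01, and Sf3b2, Sf3b3, Sf3b4 and Sf3b6 had differences from -0.24 to -0.04. In all, 16 of 21 tested genes of this role had a negative difference, with a median of -0.10 beside -0.02 for all tested genes, of which 47.4% were positive. Without control 3 the count was 11 of 21, with a median of -0.02. All tested genes moved too in that fit, to 59.7% positive and a median of 0.08.

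The Sm proteins form the ring on U1, U2, U4 and U5 RNA in equal numbers, yet their transcripts differed in level. Snrpe averaged 21.9 FPKM, Snrpb 11.2, Snrpd1 9.02, Snrpg 6.24, Snrpd2 2.09, Snrpd3 2.05 and Snrpf 1.34 FPKM. Snrpn, a paralog of Snrpb expressed in brain, averaged 5.84 FPKM, and its exons overlap those of Snurf and Gm38393 on the same strand, so its value is uncertain. Snrpb read 6.86, 20.4 and 14.1 FPKM in the controls against 7.86, 8.75 and 9.26 in the knockouts. Controls 2 and 3 lay above every knockout library and control 1 under every one. Its log2 difference was -0.51 ± 0.32 with all libraries (adjusted p = 0.93, limma) and -0.91 ± 0.23 without control 1 (adjusted p = 0.17, limma), which was the smallest adjusted p of any member in any of the 16 alternative fits. Without control 2 it was -0.18 (adjusted p = 0.995, limma). Snrpd2 showed the same order, with 0.833 FPKM in control 1, 3.79 and 3.04 FPKM in controls 2 and 3, and 1.21 FPKM to 2.204 FPKM in knockout. So did Snrpf, with 0.619 FPKM in control 1, 2.49 and 1.76 FPKM in controls 2 and 3, and 0.634 to 1.46 FPKM in knockout. Over fits that left out 1 library, the log2 differences lay between -0.76 and -0.071 for Snrpd2 and between -0.61 and -0.054 for Snrpf, both farthest from 0 without control 1 and nearest without control 2. Snrpg had the smallest p among positive differences, at 3.22, 5.95 and 6.67 FPKM (controls) and 9.14, 7.31 and 5.18 FPKM (knockouts). Its log2 difference was 0.40, and 0.14 without control 1. Of the 8 Sm genes, 6 had a negative difference, with a median of -0.21, and 7 without control 1, with a median of -0.39. Over all tested genes 47.4% were positive with all libraries (median -0.02) and 35.3% without control 1 (median -0.10). Without control 2, which was the highest library for the Sm genes (median deviation 0.42), 4 of 8 were negative and the median was -0.026. In that fit all tested genes were 46.6% positive with a median of -0.025.

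The LSm genes hold several roles. Lsm3 to Lsm8 encode parts of the ring on U6 RNA, whereas Lsm1 acts in mRNA decay, Lsm10 in histone mRNA processing, and Lsm14a and Lsm14b in P-bodies. Lsm14a was the most abundant core member by symbol, with 79.5, 102 and 150 FPKM in the controls against 129, 116 and 125 in the knockouts. Lsm12, also outside the U6 ring, had the smallest p of the negative side, with 6.09, 4.55 and 5.87 FPKM over the controls, and 3.28, 4.08 and 4.95 over the knockouts (log2 difference -0.35 ± 0.22, adjusted p = 0.93, limma). Lsm7 read 0.344, 3.37 and 3.89 FPKM (controls) and 3.69, 3.59 and 3.41 FPKM (knockouts). Control 1 alone was low there, and without it the log2 difference of 0.58 became -0.02. Lsm10 was listed at the floor of 0.1 FPKM in control 1 and read 1.96 and 1.04 FPKM in controls 2 and 3 and 0.976, 2.35 and 0.647 FPKM in knockout. Lsm1, Lsm10, Lsm12, Lsm14a and Lsm14b were left out in a further count of core genes, in which 20 of 47 had a positive difference with a median of -0.04, the same median as over all 52.

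Prpf proteins act at many steps of splicing. Prpf40b read 12.5, 10.8 and 9.66 FPKM over the controls, and 12.4, 7.80 and 12.4 over the knockouts. Prpf38b was the most abundant of the role at 28.7, 46.5 and 53.5 FPKM (controls) and 56.3, 61.6 and 48.3 FPKM (knockouts), and its log2 difference of 0.40 was 0.14 without control 1. Prpf18, a second-step factor gene, was the negative member of smallest p, at 3.55 ± 0.38 and 3.07 ± 0.65 FPKM (mean ± SD, n = 3 each).

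Transcripts of the genes linked to retinitis pigmentosa were all detected in the sorted libraries, which held rod RNA too. Prpf8, the scaffold of the catalytic centre, measured 22.6 ± 4.89 FPKM in control against 23.1 ± 2.67 FPKM in knockout. Snrnp200, the helicase that unwinds U4 from U6, measured 11.3 ± 1.47 and 10.3 ± 1.14 FPKM (mean ± SD, n = 3 each). Prpf3, a U4/U6 protein gene (chr3:95830124-95855885, minus strand, GRCm38), read 6.98, 9.36 and 11.8 FPKM (controls) and 17.8, 12.8 and 11.6 FPKM (knockouts). Knockout 3 fell just inside the control range, and the log2 difference was 0.54 ± 0.25 (95% interval -0.01 to 1.09, adjusted p = 0.90, limma). Over fits that each left out 1 library it lay between 0.36 and 0.71, with an unadjusted p from 0.025 to 0.22 (limma). Prpf6, a bridge within the tri-snRNP, averaged 6.55 FPKM, and Prpf31 and Prpf4, both of the U4/U6 particle, averaged 5.11 and 2.98 FPKM. For Prpf4, Prpf6, Prpf8, Prpf31 and Snrnp200 the log2 differences ran from -0.12 to 0.21 and the 95% interval that reached farthest from 0 was that of Prpf6, from -0.35 to 0.77 (limma).

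Control 1 was the lowest of the 6 libraries for 54 of the 96 members, or 56.3%, beside 39.2% of all tested genes. It was lowest for 15 of 20 hnRNP genes, 6 of 8 Sm genes, 7 of 11 LSm genes and 8 of 12 Prpf genes. Control 1 was lowest for 5 of 10 SR genes, 11 of 22 genes of particle-specific snRNP proteins and 2 of 13 tissue-restricted regulators. Its median deviation from the mean of the other 5 libraries, on the log2 scale, was -0.59 for Sm genes, -0.53 for LSm genes and -0.41 for hnRNP genes, beside -0.19 for all tested genes. For the particle-specific snRNP proteins it was -0.12, where knockout 2 was lower at -0.17. Core genes whose longest coding transcript was under 1000 nt (9 genes) had a median deviation of -0.57, those of 1000 to 2000 nt (16 genes) -0.63, those of 2000 to 4000 nt (17 genes) -0.31 and longer ones (10 genes) -0.20. All tested genes gave -0.40, -0.32, -0.20 and -0.11 in the same classes. Control 3 was the highest library in general, with a median deviation of 0.23 over all tested genes. Across the 92 tested members, the Spearman correlation of the deviation with this length was 0.25 in control 1 and -0.43 in control 2, beside 0.19 and -0.42 over 8585 tested genes, so shorter transcripts tended to read lower in control 1 and higher in control 2. Genes of a library share its preparation and are not independent replicates, and the part of length in the group differences was not tested.

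**Figure D4:**
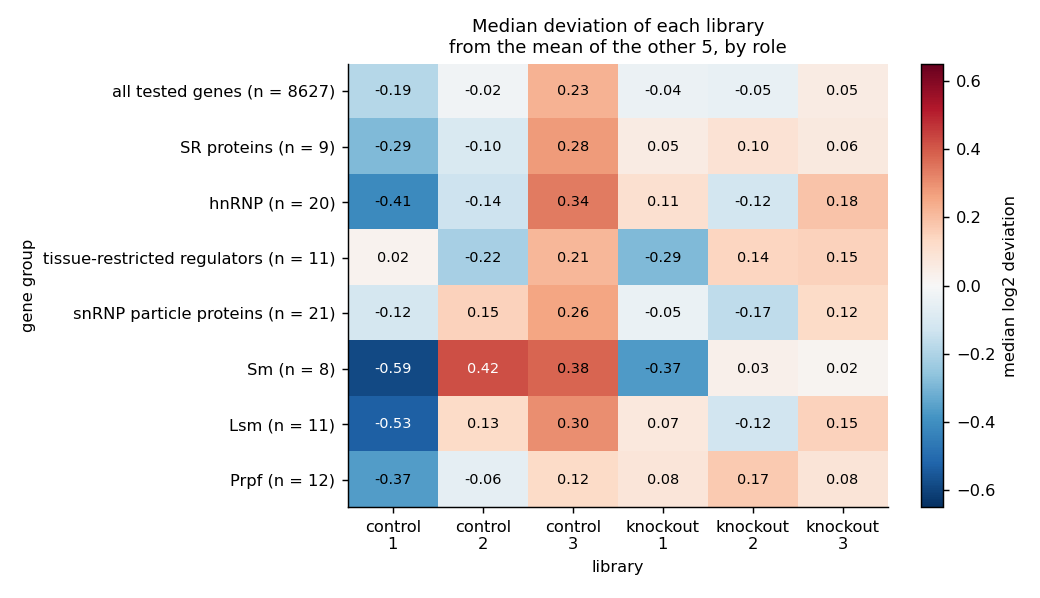
Median log2 deviation of each library (columns) from the mean of the other 5 libraries, for all tested genes and for each role of the splicing factor genes (rows), with blue for lower and red for higher. Control 1 is lowest for Sm (-0.59), LSm (-0.53) and hnRNP genes (-0.41). It is not lowest for the tissue-restricted regulators (0.02) or the particle-specific snRNP proteins (-0.12, with knockout 2 at -0.17).

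The counts of positive differences changed with the libraries in the fit. With all 6 libraries, 31 of 40 regulators had a positive difference, among them 17 of 20 hnRNP genes and 7 of 9 SR genes, beside 47.4% of all tested genes, and their median was 0.09. Without control 1 the count was 18 of 40, with 10 hnRNP and 2 SR genes, beside 35.3% of all tested genes, and the median was -0.01. Of the core genes, 22 of 52 were positive with all libraries (median -0.04) and 13 of 52 without control 1 (median -0.13), but 30 of 52 without control 2. With only genes whose mean reached 5 FPKM, 17 of 32 core genes were positive (median 0.04). Beside them were 30 of 37 regulators and 52.25% of all tested genes. The share of positive differences was larger among regulators than among all tested genes with all libraries and with each of the 6 left out, and the gap was smallest without control 1. The median of all tested genes moved from -0.02 to -0.10 in the same step. Ranges apart without control 1 were found for 3 members higher and 13 lower, beside 5.20% and 19.1% of all tested genes.

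**Figure D5:**
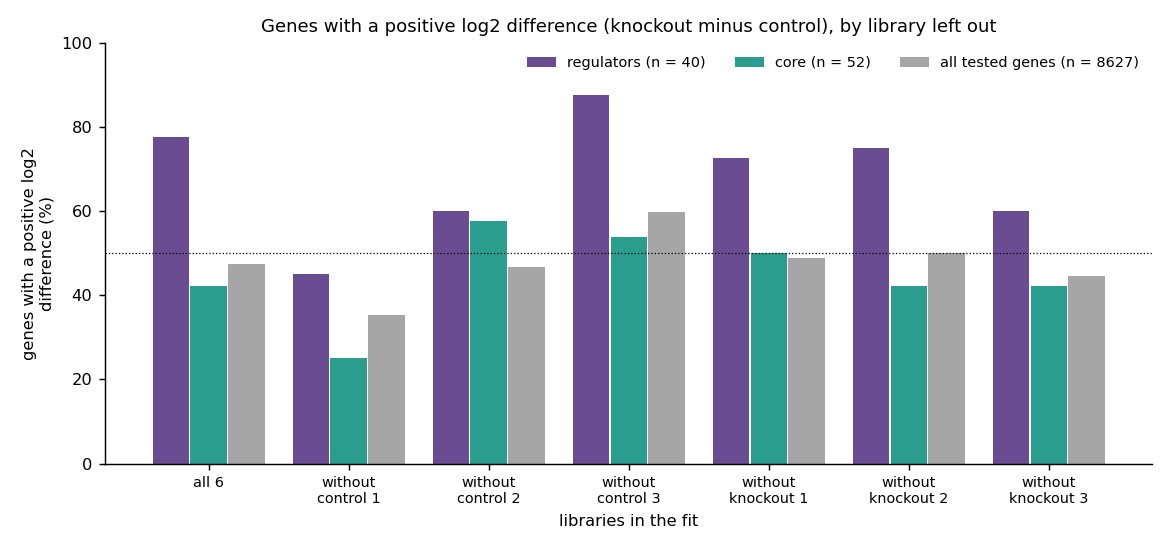
Percentage of genes with a positive log2 difference (bars from 0) among 40 regulators, 52 core genes and 8627 tested genes, with all 6 libraries and with each left out; the dotted line marks 50%. The regulators go from 77.5% with all libraries to 45.0% without control 1, while all tested genes go from 47.4% to 35.3%.

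BMAL1 and CLOCK bind the E-box CACGTG, so the promoter windows of the members, each spanning an annotated gene start in RefSeq (GRCm38), were searched for these letters. The motif reads alike on both strands. Of the 81 members with a window, 12 held it (14.8%), against 12.6% of tested genes and 8.09% of all genes with a window. It was found for 8 of 38 regulators and 4 of 43 core genes. The 12 were Hnrnpa3, Hnrnpd, Hnrnpf, Hnrnph2, Hnrnpm, Mbnl1, Msi2, Ptbp1, Prpf3, Prpf39, Prpf40b and Snrpa. Their log2 differences ran from -0.50 for Ptbp1 to 0.54 for Prpf3, with a median of 0.11, and those of the 65 tested members without it from -0.62 to 0.58, with a median of 0.04. A match describes the letters only. The windows of Ptbp1 (chr10:79854182-79854481, plus strand, motif 45 bases before the start) and Prpf3 (chr3:95855836-95856135, minus strand, motif 12 bases after the start) are shown whole because these 2 genes mark the ends of that range. Hnrnpd and Msi2 (2 matches) are shown as the motif with 20 bases on either side, since they are described above for their levels. Capitals mark the E-box, and each sequence is written 5′ to 3′ on the strand of its gene.
Ptbp1 promoter: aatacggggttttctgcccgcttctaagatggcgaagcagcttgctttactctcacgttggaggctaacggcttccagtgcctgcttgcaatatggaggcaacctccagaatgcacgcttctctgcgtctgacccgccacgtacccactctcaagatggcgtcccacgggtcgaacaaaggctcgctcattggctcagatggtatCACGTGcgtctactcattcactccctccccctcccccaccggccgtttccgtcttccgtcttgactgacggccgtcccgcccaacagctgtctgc
Prpf3 promoter: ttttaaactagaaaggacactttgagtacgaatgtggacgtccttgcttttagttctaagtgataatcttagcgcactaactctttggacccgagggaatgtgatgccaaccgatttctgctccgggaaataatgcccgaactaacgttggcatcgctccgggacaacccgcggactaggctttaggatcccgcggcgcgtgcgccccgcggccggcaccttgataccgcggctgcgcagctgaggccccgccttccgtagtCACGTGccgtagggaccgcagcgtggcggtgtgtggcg
Hnrnpd E-box: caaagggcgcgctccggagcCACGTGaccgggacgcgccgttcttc
Msi2 E-box nearer the start: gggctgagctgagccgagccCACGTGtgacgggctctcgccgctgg
Msi2 E-box farther upstream: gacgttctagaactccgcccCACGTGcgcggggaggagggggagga

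Many splicing regulators limit their own output through exons or introns that send the transcript to decay. GENCODE lists a transcript marked for nonsense-mediated decay for 8 of 9 tested SR genes and 10 of 20 hnRNP genes, or 57.5% of regulators and 34.6% of core genes, beside 31.0% of all tested genes. Regulators also have more annotated transcripts, with a median of 10 against 5 for core genes and 6 for all tested genes. An FPKM value of a whole gene does not separate productive from decaying transcripts. Near-identical copies add to the uncertainty: pseudogene transcripts matching a member's longest coding transcript at 90% identity or more over at least 300 bases were found for 31 members, with 37 for Hnrnpa3 and 15 for Hnrnpa1. Exons of 29 members overlap another gene on the opposite strand, among them Srsf2, Sf3a2 and Prpf31. Those of 9 members overlap another gene on the same strand, among them Hnrnpm (March2, 1169 bp) and U2af1l4 (Gm49396, 1086 bp).

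Other genes of the splicing machinery outside the symbol rule were read from 6 lists, of which 137 of 157 genes were tested. None passed over all genes, 80 differences were positive and 57 negative, and the median was 0.05. At an unadjusted p under 0.05 there were 2, both negative. Phf5a, an SF3b subunit gene, read 10.3, 13.7 and 10.7 FPKM in the controls against 5.89, 4.90 and 8.34 in the knockouts (log2 difference -0.78 ± 0.24, adjusted p = 0.61, limma), without overlap. Dyrk1b, a kinase gene, read 4.24, 4.49 and 3.69 FPKM over the controls, and 1.06, 2.27 and 3.34 over the knockouts (log2 difference -0.74 ± 0.27, adjusted p = 0.79, limma), with -0.45 without knockout 1. Ranges were apart for 6 genes in each direction, beside 3.52% and 5.87% of all tested genes. The higher were Cwc22, Dhx9, Pspc1, Rbm25, Son and Taf15, and the lower Cirbp, Dyrk1b, Phf5a, Slu7, Syf2 and Zmat2. Srrm4 and Srrm3, which promote neuronal microexons, averaged 9.40 and 11.2 FPKM in control against 9.66 and 11.8 FPKM in knockout. Cirbp, a cold-induced RNA-binding protein gene known to respond to the daily temperature cycle, measured 19.3 ± 1.25 FPKM in control against 13.9 ± 3.19 FPKM in knockout (mean ± SD, n = 3 each). Its groups did not overlap, and its adjusted p was 0.90 (limma).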

How the data were processed

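The authors deposited 1 table of FPKM values with a column per library, made from poly(A) RNA of sorted cones with a strand-directional kit, per the labels' protocols. The submitters' processing notes name the build mm10 and, without roles, DESeq2, HTSeq, Cufflinks 2.2.1 and TopHat2 2.1.0. No value lies under 0.1 FPKM. Depth is unknown, since low values shared no common step between libraries.

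Values were taken as log2(FPKM + 1) without further scaling, for genes whose mean reached 1 FPKM, and compared with limma 3.58.1 in R 4.3.3 (variance trend, two-sided, Benjamini-Hochberg over all tested genes, threshold 0.05). The fit was tested on simulated data. All 96 members matched GENCODE vM21 (GRCm38) by gene ID. Copies were sought with blastn 2.17.0, and figures made with matplotlib 3.10.9.

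Members, lists and tests were chosen with earlier results of these data known. Genes described singly were those past a threshold, the most abundant and the smallest p in each direction per role, photoreceptor-linked members, neural paralogs and members at the floor. Others, such as Srsf1, Sf3a2, Snrpd2, Prpf40b and Cirbp, were added after their values were seen. The values of 1 member are not reported here; counts and medians over members include it.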

Additional observations from a re-analysis of the deposited data

How the results depend on the processing

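No member passed an adjusted p of 0.05 (limma) in any of the 16 alternatives, which varied the pseudocount, the filter, the scaling, the variance model and the libraries. The smallest adjusted p of a member was 0.17. Over all tested genes 9 passed, 23 with array weights, and 6 to 13 when 1 library was left out. Same-numbered libraries did not deviate together (r from -0.12 to -0.03). The labels do not say whether the numbers pair libraries, and so few libraries cannot settle it. A replicate block left 6 genes called and no member, with medians of -0.04 for core genes and 0.09 for regulators. Leaving out 1 library at a time gave 13 to 30 core genes and 18 to 35 regulators with a positive difference. Both lowest counts came without control 1, and the highest without control 2 (core) and control 3 (regulators). The median then ran from -0.13 to 0.04 for core genes and from -0.01 to 0.22 for regulators.

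Of the 36 genes tested and described by the naming rule, 19 kept their sign throughout. The other 17 changed it in some alternative, among them Lsm7, whose main difference was 0.58. Celf1 was at 0.017 after median-ratio scaling, 0.019 after sum scaling, 0.021 after quantile normalization and 0.043 with array weights. Srsf4 was at 0.0065, 0.012, 0.044 and 0.028 under the same settings. With array weights Lsm10 was at -0.054, Prpf4 at -0.090 and Srsf2 at -0.14. Leaving out 1 library at a time gave -0.10 to 0.16 for Celf1, -0.052 to 0.36 for Celf2, -0.014 to 0.48 for Hnrnpa2b1, -0.26 to 0.025 for Hnrnpc, -0.15 to 0.57 for Lsm10 and -0.0028 to 0.45 for Lsm14a. It gave -0.018 to 0.91 for Lsm7, -0.031 to 0.30 for Mbnl2, -0.084 to 0.31 for Msi2, -0.29 to 0.12 for Prpf31, -0.15 to 0.12 for Prpf4 and -0.037 to 0.39 for Prpf6. It gave -0.082 to 0.20 for Prpf8, -0.13 to 0.38 for Ptbp2, -0.32 to 0.098 for Snrpe, -0.26 to 0.40 for Srsf2 and -0.10 to 0.14 for Srsf4. Apart from these settings the cause was not tested. Depth is unknown, so counting error could not be given.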
